A study of Mus musculus with 6 samples.

Results

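The 10 genes described here are direct transcriptional targets of bone morphogenetic protein (BMP) signaling or inhibitors of it, namely *Id1*, *Id2*, *Id3*, *Id4*, *Smad6*, *Smad7*, *Smad9*, *Bambi*, *Msx1* and *Msx2*. They were chosen by name, and each of the 10 symbols was matched to 1 row among the 22032 genes of the mouse matrix. RNA-seq was measured in 3 embryonic and 3 adult samples of mouse cartilage, where the study isolated chondrocytes to compare mouse with human cartilage development. The embryonic cells came from E16.5 embryos (the labels write the stage as 16.5 wks) and the adult cells from animals at 2 months, which the methods describe as male B6 mice. Both were sorted as BMPR1B+ and ALP- cells without blood and endothelial lineages, so every sample had been selected for a BMP receptor. No transgene or treatment is described, and the number of animals per sample is not given in the sources used here.

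BMP ligands bind paired type I and type II receptor kinases, which phosphorylate the receptor-activated Smads 1, 5 and 9. These enter the nucleus with Smad4 and switch on a short list of genes in nearly every cell type. Several of those targets close the loop, since Smad6 and Smad7 block the receptors and the Smads, and Bambi is a pseudoreceptor without a kinase. In cartilage the pathway drives condensation, chondrocyte differentiation and growth, and it is held back where joints form.

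Levels are given in TPM, transcript abundance relative to the total of each library, a unit that is already corrected for transcript length and can be compared between genes. The authors deposited log2(TPM + 1), and each mean below is on that log2 scale with its SD over n = 3. A log2 fold change is the adult minus the embryonic mean on the same scale, which understates the change of low genes. It passed the test at a limma adjusted p under 0.05, adjusted over the 13125 genes whose mean over the 6 samples reached 1 TPM. All 10 genes were above that filter.

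Of the 10 genes, 3 rose in adult cells (*Msx1*, *Smad6* and *Id4*), 1 fell (*Smad7*) and 6 did not pass the test. Over all tested genes 45.3% passed, 23.9% as higher and 21.4% as lower, so the share among the 10 lay close to that background. Their median log2 fold change was 0.30, beside 0.16 over all tested genes. The inhibitory Smads moved in opposite ways, and *Id4* rose while the more abundant *Id1*, *Id2* and *Id3* had log2 fold changes slightly under 0.

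**Figure D1:**
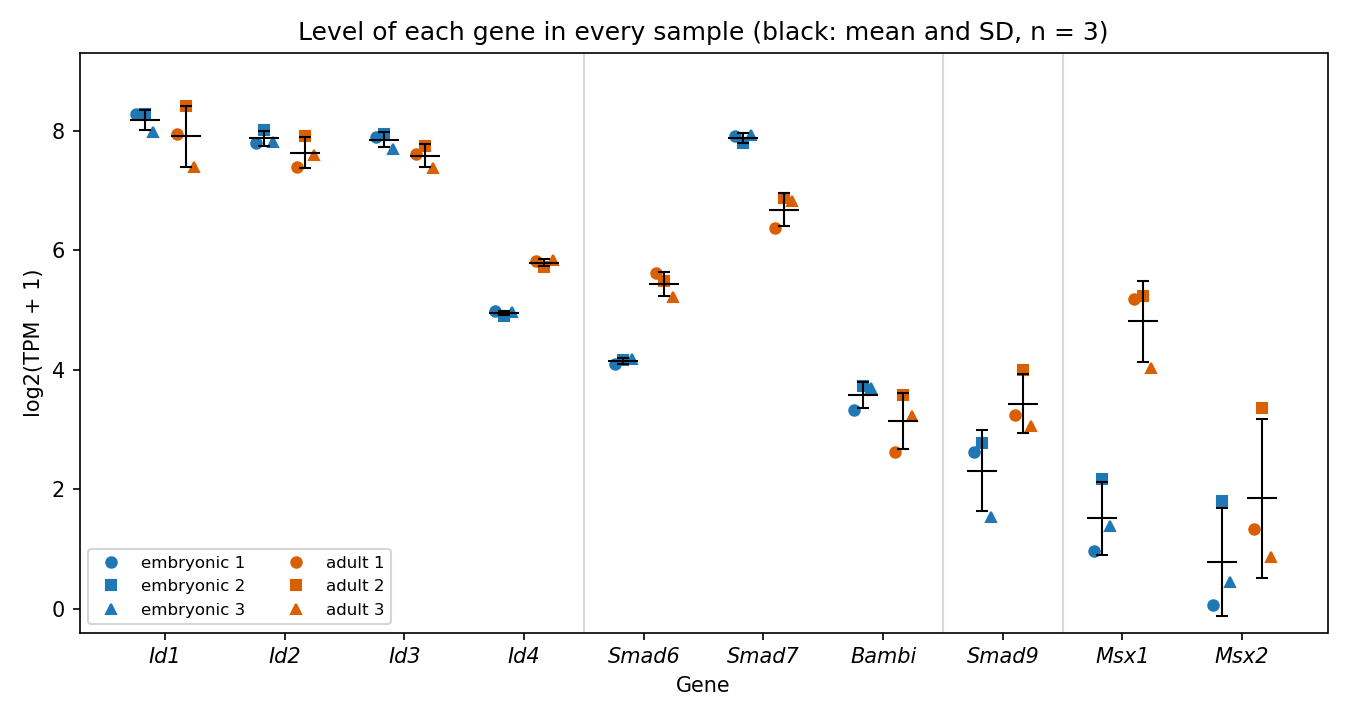
Level of each of the 10 genes in every sample as log2(TPM + 1), with embryonic samples in blue, adult samples in orange, and the mean and SD (n = 3) in black. *Smad6*, *Id4* and *Msx1* have all adult points above all embryonic ones, *Smad7* has them all below, and *Id1*, *Id2* and *Id3* overlap.

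In the embryonic samples *Id1* was the most abundant of the 10, at 251 to 310 TPM. *Smad7*, *Id2* and *Id3* followed between 206 and 258 TPM, with ranges that overlapped each other. A gap of several fold separated these from *Id4*, *Smad6* and *Bambi*, each of which lay apart from its neighbour in the order. *Smad9*, *Msx1* and *Msx2* were the lowest, at 0.048 to 5.80 TPM, and each overlapped the next. In the adult samples *Id1*, *Id2* and *Id3* overlapped at the top, and *Smad7* had dropped below all 3. *Id4* came next, *Smad6* and *Msx1* overlapped, and so did *Smad9* and *Bambi*. *Msx2* stayed last by its mean, though its range overlapped that of *Bambi*.

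The Id proteins are helix-loop-helix factors without a DNA-binding region, which bind E proteins and keep them from DNA. *Id1* (GRCm38 chr2:152736251-152737410), the target by which BMP activity is most often read, measured 308, 310 and 251 TPM in embryonic cells and 244, 339 and 167 TPM in adult cells. The stages overlapped, with the highest and the lowest value both in adult samples. The mean was 8.18 ± 0.17 (SD, n = 3) and then 7.91 ± 0.51, a log2 fold change of -0.26 (SE 0.234, limma adjusted p = 0.383).

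*Id2* measured 222, 258 and 223 TPM in embryonic cells and 167, 239 and 193 TPM in adult cells. *Id3* was at 238, 245 and 206 TPM and then at 195, 213 and 165 TPM. In both genes 1 adult value lay within the embryonic range and the other 2 below it. Their log2 fold changes were -0.24 (SE 0.155) and -0.27 (SE 0.141), with limma adjusted p of 0.235 and 0.149. Under median-of-ratios scaling *Id3* fell by 0.42 and passed the test with an adjusted p of 0.0477.

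*Id4* (chr13:48261228-48266026) measured 30.5, 28.9 and 30.1 TPM in embryonic cells and 55.2, 51.6 and 56.3 TPM in adult cells. Every adult value lay above every embryonic one, and the spread within either stage was small. The mean rose from 4.95 ± 0.04 (SD, n = 3) to 5.79 ± 0.06, a log2 fold change of 0.84 (SE 0.164, limma adjusted p = 0.00338), and the mean TPM was 1.82 times as high. Exons of *A330033J07Rik* and *Gm49291* overlap *Id4* on the opposite strand. The methods describe mouse libraries made from double-stranded cDNA and name no step that marks strand. Reads from both strands thus cannot be told apart where these exons overlap. *A330033J07Rik* was itself listed at 0 to 2.15 TPM.

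Summed over *Id1* to *Id4*, the family stood at 798, 842 and 710 TPM in embryonic cells and at 662, 842 and 582 TPM in adult cells. Those sums overlapped between stages. The share of *Id4* in them did not, being 3.43% to 4.23% in embryonic and 6.13% to 9.69% in adult cells. That share is a ratio within each sample, which a single scaling factor per library leaves as it is. *Id1* made up 35.4% to 38.6% of the sum in embryonic cells and 28.7% to 40.2% in adult cells.

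The E proteins that Id proteins bind are encoded by *Tcf3*, *Tcf4* and *Tcf12*. *Tcf12* measured 190, 180 and 167 TPM in embryonic cells and 95.3, 117 and 126 TPM in adult cells, a fall of 0.67 on the log2 scale (limma adjusted p = 0.00556). *Tcf4*, the most abundant of them, did not pass the test (log2 fold change -0.07, limma adjusted p = 0.738), and neither did *Tcf3* (log2 fold change -0.36, limma adjusted p = 0.101), though it passed under median-of-ratios scaling (0.0268). The summed Id TPM was 1.71 to 2.08 times the summed E protein TPM in embryonic cells and 1.78 to 2.45 times in adult cells, and these ranges overlapped.

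*Smad6* encodes the inhibitory Smad that acts chiefly on BMP signaling. The gene (chr9:63953076-64022059) measured 16.0, 16.9 and 17.1 TPM in embryonic cells and 48.2, 44.0 and 36.3 TPM in adult cells. The lowest adult sample was thus above the highest embryonic one by more than either stage's whole range. The mean rose from 4.14 ± 0.05 to 5.44 ± 0.20 (SD, n = 3), a log2 fold change of 1.30 (SE 0.207, limma adjusted p = 0.0012).

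*Smad7*, the inhibitory Smad that acts on both TGF-beta and BMP receptors, went the other way. It measured 239, 220 and 243 TPM in embryonic cells and 81.7, 116 and 112 TPM in adult cells, with no overlap. The mean fell from 7.88 ± 0.08 to 6.68 ± 0.27 (SD, n = 3), a log2 fold change of -1.19 (SE 0.158, limma adjusted p = 0.000452).

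*Smad7* remained the more abundant of the pair in every sample. The embryonic samples held 14.9, 13.0 and 14.2 *Smad7* transcripts for each *Smad6* transcript, and the adult samples 1.70, 2.63 and 3.07. Together the 2 genes stood at 237 to 261 TPM in embryonic and 130 to 160 TPM in adult cells. The adult values thus combined less inhibitory Smad transcript in sum with a larger share of *Smad6*.

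**Figure D2:**
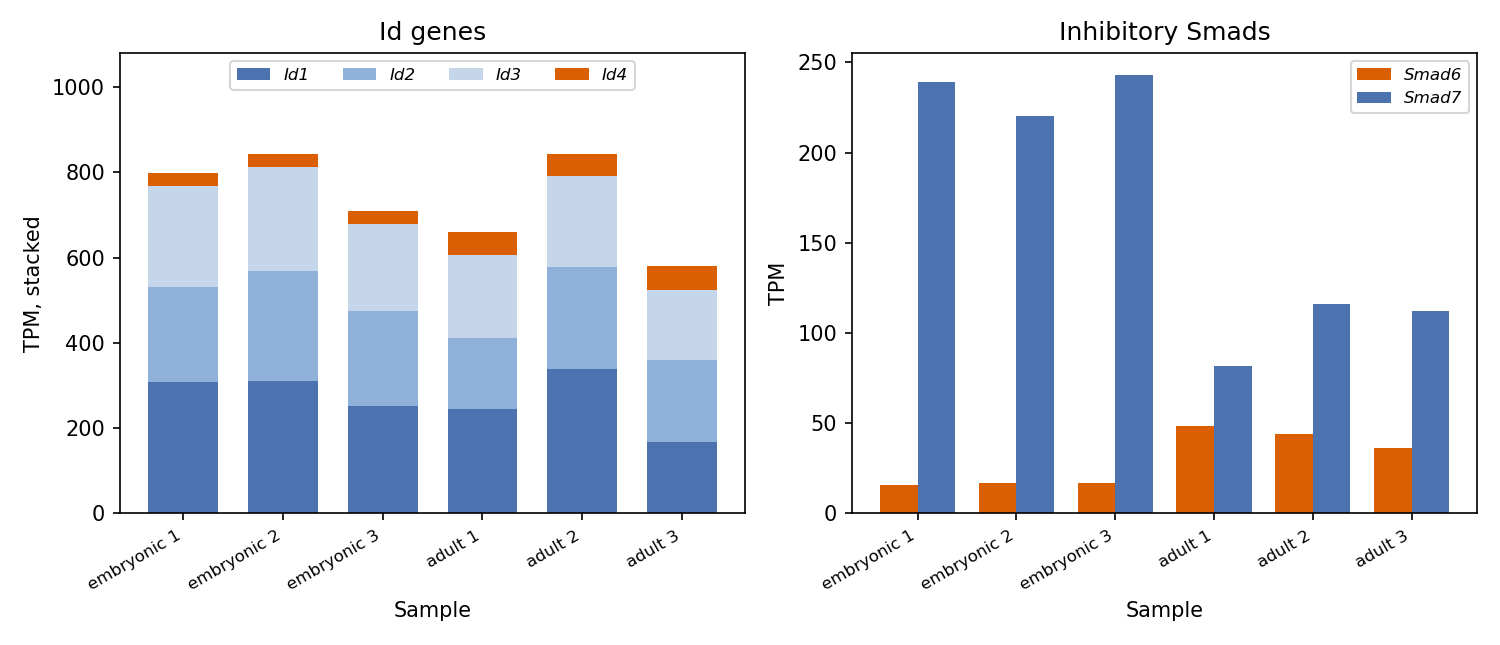
Left, TPM of *Id1* to *Id4* stacked for each sample, where the height is the sum of the family and *Id4* is orange. Right, TPM of *Smad6* (orange) and *Smad7* (blue) in each sample. The Id sums of the stages overlap, while *Smad7* exceeds *Smad6* by 13.0 to 14.9 times in embryonic cells and by 1.70 to 3.07 times in adult cells.

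*Bambi*, the pseudoreceptor, measured 9.0, 12.2 and 11.9 TPM in embryonic cells and 5.18, 10.9 and 8.31 TPM in adult cells. The stages overlapped, and the log2 fold change of -0.44 (SE 0.356) did not pass the test (limma adjusted p = 0.34).

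*Smad9* encodes another BMP receptor-activated Smad and is itself a BMP target. It measured 5.17, 5.80 and 1.89 TPM in embryonic cells and 8.50, 14.9 and 7.29 TPM in adult cells. All adult values lay above all embryonic ones. The log2 fold change of 1.12 had a large error (SE 0.463) and did not pass the test (limma adjusted p = 0.0771). A stretch of up to 133 bases of its transcripts aligned at 95% identity or more to transcripts of 6 other genes, so part of its reads could have been shared.

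The other BMP receptor-activated Smads gave the context for this low gene. *Smad1* measured 90.0, 71.6 and 91.8 TPM in embryonic cells and 23.6, 23.3 and 15.8 TPM in adult cells, a fall of 1.98 on the log2 scale (limma adjusted p = 0.000152). *Smad5*, named here after its values were seen, was at 69.4 to 73.4 TPM and at 52.1 to 79.3 TPM, with a log2 fold change of -0.05 (limma adjusted p = 0.837). Of the summed *Smad1*, *Smad5* and *Smad9* TPM, *Smad9* made up 3.07%, 3.95% and 1.15% in embryonic cells and 10.1%, 12.8% and 7.12% in adult cells. *Smad1* made up 48.7% to 55.9% and then 15.5% to 28%. The most abundant of these Smads was *Smad1* in every embryonic sample and *Smad5* in every adult one.

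The Msx genes encode homeodomain repressors known from limb mesenchyme, skull and tooth. *Msx1* had the largest change of the 10. The gene (chr5:37820485-37824583) measured 0.952, 3.51 and 1.61 TPM in embryonic cells and 35.2, 36.6 and 15.4 TPM in adult cells, without overlap. The mean rose from 1.51 ± 0.61 to 4.81 ± 0.68 (SD, n = 3), a log2 fold change of 3.31 (SE 0.470, limma adjusted p = 0.000659). The ratio of mean TPM was 14.3, and of the 13125 tested genes 170 had a higher log2 fold change. Adult replicate 3 was the lowest of its stage but still above every embryonic sample.

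*Msx2* was near the floor of the data in most samples, at 0.048, 2.50 and 0.37 TPM in embryonic and 1.51, 9.29 and 0.813 TPM in adult cells. Embryonic replicate 2 lay above 2 of the adult samples, and the log2 fold change of 1.07 (SE 0.760) did not pass the test (limma adjusted p = 0.276). Its size rested on adult replicate 2, without which it was 0.32. Its transcripts share a stretch of up to 114 bases with those of 345 other genes, so single values are uncertain.

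**Figure D3:**
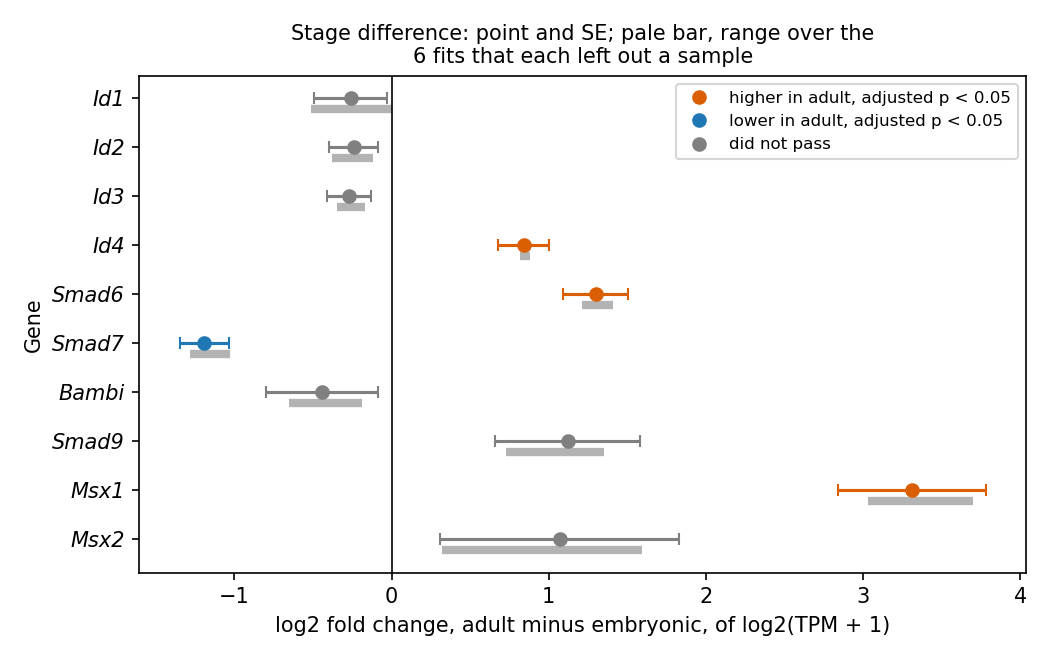
Log2 fold change (adult minus embryonic) of each of the 10 genes with its standard error, colored by the limma test at an adjusted p under 0.05. The pale bar under each point spans the 6 fits that each left out 1 sample. It crosses 0 in none of the 10 genes, passed or not, though for *Id1* it ends at -0.0.

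The 4 genes that passed did so with every sample left out in turn, with log2 fold changes of 3.03 to 3.70 for *Msx1*, 1.21 to 1.41 for *Smad6*, 0.82 to 0.88 for *Id4* and -1.28 to -1.03 for *Smad7*. In 5 of the 10 genes the stage ranges did not overlap, 4 with the adult samples above and 1 below. Over all tested genes 56.5% did not overlap, 30.7% with the adult samples above and 25.9% below, so this count too was near the background. Within the adult stage, replicate 2 held the highest value of 8 of the 10 genes and replicate 3 the lowest of 6. Over all tested genes, replicate 2 was the highest adult sample in 31.2% and replicate 3 the lowest in 32.3%. Embryonic replicate 2 was likewise the highest of its stage in 7 of the 10 genes, beside 27.4% of all tested genes. The replicates numbered 2 were highest at both stages in 7 of the 10 (*Id1*, *Id2*, *Id3*, *Smad9*, *Bambi*, *Msx1* and *Msx2*), beside 7.72% of all tested genes, a pattern noticed in the data and not tested. The adult exceptions at the upper end were *Smad6*, highest in replicate 1, and *Id4*, highest in replicate 3. *Bmpr1b*, the receptor used in the sort, was at 4.51, 18.5 and 13.4 TPM in adult replicates 1, 2 and 3. In embryonic replicates 1, 2 and 3 it was at 20.3, 19.0 and 16.4 TPM, highest in replicate 1. Its part in these differences was not tested.

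RefSeq promoter windows of GRCm38.p6 were matched for 7 of the 10 genes, all but *Id1*, *Smad7* and *Bambi*. Those of the 3 genes that rose are shown for their Smad-binding motifs, each from 250 bases before the annotated start to 10 bases after it. The 6-base motifs GGAGCC and GGCGCC are bound by BMP-activated Smads, CAGAC is the core of the Smad-binding element and GTCTAGAC its palindrome, and all were searched on both strands. Capitals mark the matches, none of which overlap each other. The windows lie at chr9:64022050-64022309 on the minus strand (*Smad6*), chr13:48260866-48261125 on the plus strand (*Id4*) and chr5:37824576-37824835 on the minus strand (*Msx1*).
Smad6: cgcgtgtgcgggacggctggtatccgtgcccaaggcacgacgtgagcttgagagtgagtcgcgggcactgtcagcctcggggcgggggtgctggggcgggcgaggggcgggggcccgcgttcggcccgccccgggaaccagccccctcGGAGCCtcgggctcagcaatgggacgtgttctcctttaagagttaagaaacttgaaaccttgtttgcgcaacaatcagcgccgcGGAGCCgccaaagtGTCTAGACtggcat
Id4: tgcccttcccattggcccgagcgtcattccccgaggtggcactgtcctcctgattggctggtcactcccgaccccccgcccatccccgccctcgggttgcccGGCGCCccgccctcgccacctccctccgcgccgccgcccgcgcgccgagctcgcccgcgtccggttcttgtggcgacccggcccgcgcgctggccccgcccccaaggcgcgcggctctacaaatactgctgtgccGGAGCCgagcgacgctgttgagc
Msx1: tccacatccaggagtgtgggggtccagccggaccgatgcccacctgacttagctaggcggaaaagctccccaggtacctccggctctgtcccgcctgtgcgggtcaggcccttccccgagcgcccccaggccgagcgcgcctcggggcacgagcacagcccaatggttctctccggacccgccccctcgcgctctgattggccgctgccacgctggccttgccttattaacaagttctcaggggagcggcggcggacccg

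The *Smad6* window holds GGAGCC at 102 and 18 bases before the start and GTCTAGAC from 4 bases before it. The *Id4* window holds GGCGCC 148 bases and GGAGCC 13 bases before the start, and the *Msx1* window holds none of these letters. Of the windows not shown, those of *Id2* and *Smad9* hold GGCGCC and GGAGCC, that of *Id3* holds GGAGCC and CAGAC, and that of *Msx2* holds GGAGCC. Of all 32851 windows of this length, 26.8% hold GGAGCC, 9.96% GGCGCC, 44.0% CAGAC and 0.177% GTCTAGAC. The matched windows of these genes were 60.4% to 75.0% G or C, the letters of all of GGCGCC and most of GGAGCC. The shares over all windows were not matched for this, so they do not show whether the motifs are enriched here. A match is a run of letters, and enhancers outside these windows were not searched.

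The rest of the pathway was read from 7 lists of 60 genes in all, of which 57 were tested and 32 (56.1%) passed, 13 higher and 19 lower in adult cells. Over all tested genes 45.3% passed.

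**Figure D4:**
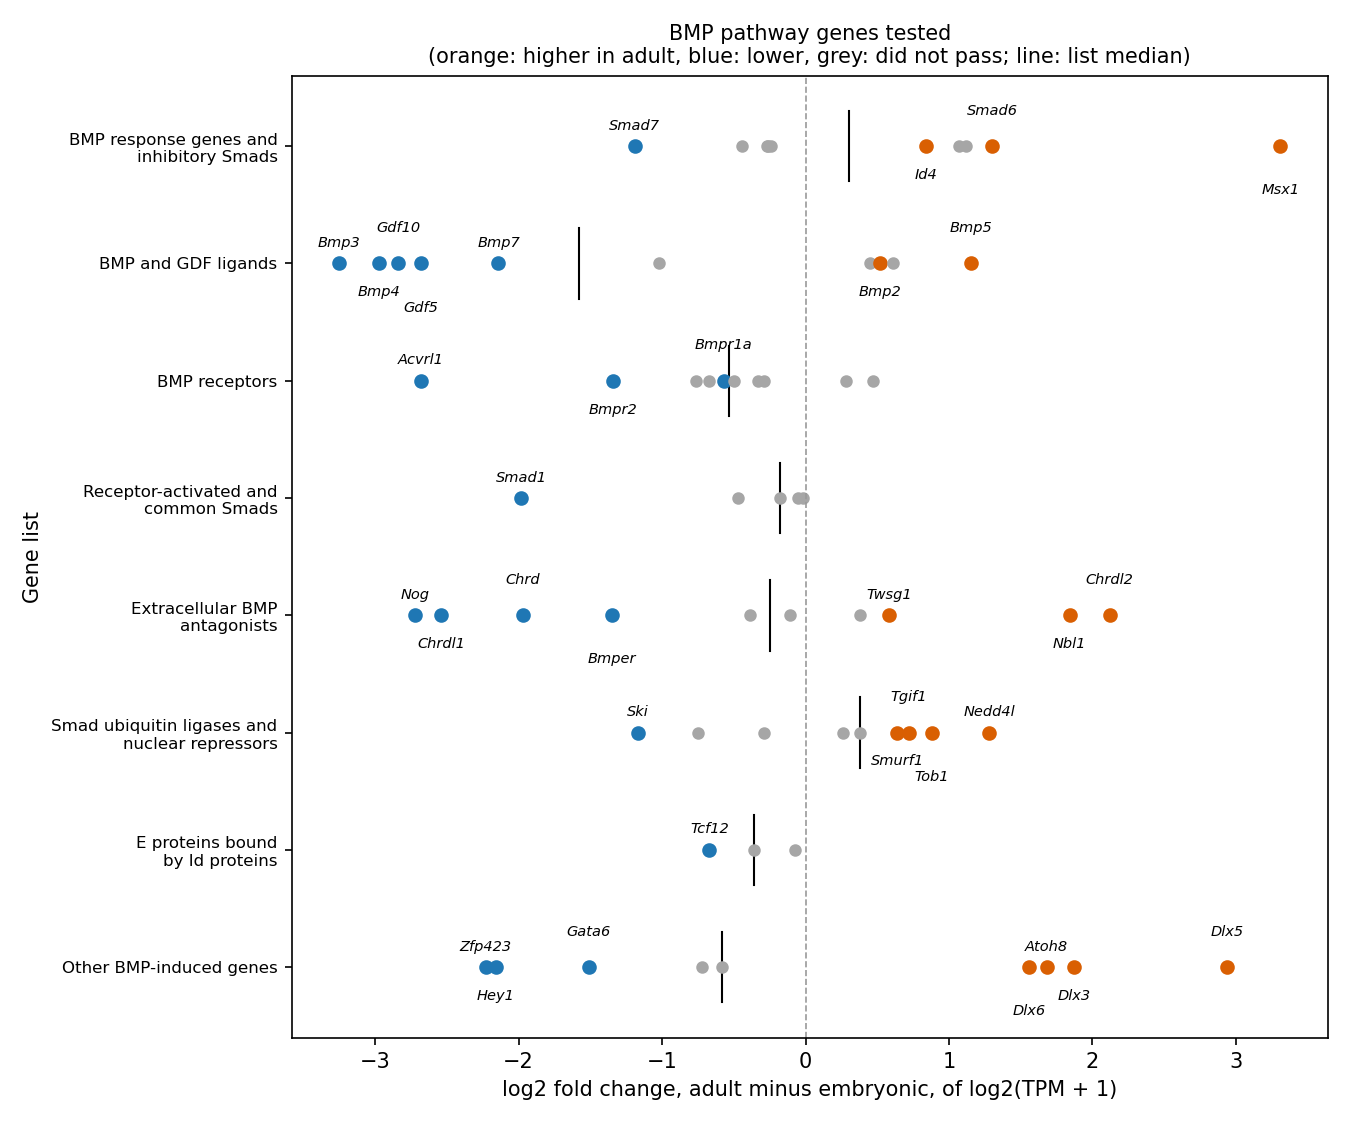
Log2 fold change (adult minus embryonic) of the tested genes of the BMP pathway by list. Lines mark the median of the plotted genes of each list, and names mark genes at a limma adjusted p under 0.05. The ligands stand furthest to the left with a median of -1.58. *Sostdc1*, listed at 0 in all adult samples, is not plotted, and the line of the antagonists, at -0.25, leaves it out.

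Among the ligands, 2 of 10 tested genes were higher and 5 lower, around a median of -1.58 on the log2 scale. *Bmp4*, a ligand of limb and cartilage development, measured 148, 131 and 121 TPM in embryonic cells and 15.7, 17.4 and 15.3 TPM in adult cells (log2 fold change -2.97, SE 0.166, limma adjusted p = 4.23e-06). *Bmp3*, which encodes an atypical member that opposes BMP signals, was at 10.8 to 19.7 TPM and then at 0.14 to 2.00 TPM (log2 fold change -3.25, limma adjusted p = 0.00111). *Bmp2*, the most abundant ligand over the 6 samples, rose from 119, 104 and 110 TPM to 131, 183 and 169 TPM, a log2 fold change of 0.52 (limma adjusted p = 0.0241). The call was lost with median-of-ratios scaling, without the variance trend, with the replicate block, and without embryonic replicate 2 or 3 or adult replicate 2 or 3, with limma adjusted p of 0.0504 to 0.0809.

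*Bmp5* was singled out after its values were seen, as the other ligand that rose, from 92.0, 80.1 and 59.2 TPM to 195, 175 and 142 TPM (log2 fold change 1.15, limma adjusted p = 0.00167). Summed over *Bmp2*, *Bmp4*, *Bmp5*, *Bmp6* and *Bmp7*, ligand transcripts stood at 417 to 466 TPM in embryonic cells and 418 to 600 TPM in adult cells, which overlapped. *Bmp4* made up 29.0% to 31.6% of that sum in embryonic cells and 2.91% to 3.76% in adult cells.

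Of the 10 receptors 3 were lower and 7 did not pass the test, around a median of -0.53. *Bmpr2*, the type II receptor of BMPs, went from 75.6, 64.1 and 76.1 TPM to 28.9, 27.8 and 26.3 TPM (log2 fold change -1.34, limma adjusted p = 0.000315). *Acvrl1*, the type I receptor ALK1 known from endothelium, went from 12.3, 7.64 and 15.2 TPM to 2.59, 0.945 and 0 TPM (log2 fold change -2.68, limma adjusted p = 0.00419). *Acvr1*, the most abundant, had all adult values below all embryonic ones but did not pass the test (log2 fold change -0.29, limma adjusted p = 0.125). It passed under median-of-ratios scaling, with an adjusted p of 0.0339, and without adult replicate 2, with 0.0443. Of the 5 receptor-activated and common Smads outside the 10 genes, *Smad1* was lower and 4 did not pass, among them *Smad4*, the shared partner, with a log2 fold change of -0.18 (limma adjusted p = 0.397).

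Secreted antagonists split, with 3 of 11 higher and 5 lower. *Nbl1*, which encodes a DAN family antagonist and was the most abundant of them, rose from 99.4, 94.2 and 75.8 TPM to 345, 244 and 394 TPM (log2 fold change 1.84, limma adjusted p = 0.000137). *Nog*, encoding noggin, went from 17.5, 21.8 and 31.2 TPM to 0.403, 5.74 and 4.01 TPM (log2 fold change -2.72, limma adjusted p = 0.00532). *Sostdc1* was at 3.75 to 8.44 TPM in embryonic cells and listed at 0 in all adult samples. The list had a median of -0.39 on the log2 scale, or -0.25 without it.

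Of 9 Smad ubiquitin ligases and nuclear repressors, 4 were higher and 1 lower, around a median of 0.38. *Nedd4l*, a ubiquitin ligase, rose by 1.28 on the log2 scale (limma adjusted p = 0.00782) and *Tgif1*, a corepressor of Smads, by 0.72 (limma adjusted p = 0.00311). *Ski*, another corepressor, fell from 201, 170 and 187 TPM to 91.9, 80.4 and 75.0 TPM (log2 fold change -1.17, limma adjusted p = 0.000259).

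Of a further 10 genes known to respond to BMPs in other cells, 9 were tested. Of these 4 were higher and 3 lower, around a median of -0.58 on the log2 scale. *Dlx5*, a homeodomain factor of limb and skeleton, went from 8.24, 3.17 and 4.99 TPM to 43.1, 51.4 and 44.3 TPM (log2 fold change 2.94, limma adjusted p = 0.000181). *Zfp423*, which encodes a zinc finger partner of Smads, went from 107, 95.1 and 105 TPM to 21.0, 16.8 and 25.9 TPM (log2 fold change -2.23, limma adjusted p = 4.81e-05). *Atoh8*, chosen after its values were seen as a target often read together with *Id1* and *Smad6*, rose from 21.6, 21.4 and 25.0 TPM to 91.0, 74.9 and 60.8 TPM (log2 fold change 1.68, limma adjusted p = 0.00026). The rest that passed were *Dlx3* and *Dlx6*, with log2 fold changes of 1.87 and 1.56, and *Hey1* and *Gata6*, with -2.16 and -1.51. Leaving out any single embryonic sample lost the calls of *Dlx6*, *Hey1* and *Gata6*.

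The genes whose profile over the 6 samples was most like that of *Id1*, the most abundant member, were *Nob1*, *March7* and *Dbr1*, at a root mean square difference of 0.078, 0.090 and 0.104 in log2(TPM + 1) after centring each gene on its mean. For *Msx1*, with the largest change, they were *Cbx7*, *Dapk2* and *Aldh1a1*, at 0.177, 0.309 and 0.376. *Cbx7*, a Polycomb gene, had listed values of 0, 1.08 and 0 TPM in embryonic and 15.6, 17.3 and 4.99 TPM in adult cells, with adult replicate 3 the lowest as in *Msx1*. These likenesses rest on 6 samples in 2 stages and on the same libraries.

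The labelled cell type was read from 9 chondrocyte markers, all of which were listed above 0 at both stages. Of these, 5 passed as lower and 2 as higher in adult cells, and they had a sum of 21791 to 23572 TPM in embryonic and 9338 to 12328 TPM in adult cells. *Col2a1*, the main cartilage collagen, carried most of that drop, with a mean of 14689 TPM in embryonic and 4706 TPM in adult cells. *Col9a1* fell from a mean of 1931 to 44.8 TPM and *Matn3* from 201 to 2.2 TPM (limma adjusted p = 1.56e-06 and 2.34e-06). *Col11a1* and *Hapln1* also passed as lower. *Sox9*, the chondrocyte transcription factor, rose from a mean of 436 to 715 TPM (limma adjusted p = 0.01), and the matrix gene *Comp* from 574 to 2164 TPM (limma adjusted p = 3.78e-05). In bulk samples fewer cells of a type and less RNA per cell cannot be told apart. Endothelial cells, in which *Id1*, *Id3* and *Smad6* are known to be active, had 6 of 6 markers above 0 in some sample, with sums of 10.9 to 35.6 TPM in embryonic and 4.20 to 13.0 TPM in adult cells. *Tek* fell from a mean of 12.5 to 0.6 TPM (limma adjusted p = 0.000976) and carried most of the difference. *Pecam1* had all adult values (2.79 to 6.87 TPM) above the embryonic ones (1.29 to 1.75 TPM) without passing the test (limma adjusted p = 0.123), and *Cdh5*, at most 0.283 TPM in embryonic and 2.36 TPM in adult cells, was under the filter. Of 6 leukocyte markers 5 were above 0, with sums of 5.67 to 13.7 TPM and 19.0 to 72.5 TPM, and *Cd3e* was at 0 throughout. *Cd68* rose from a mean of 7.57 to 26.0 TPM (limma adjusted p = 0.00967). *Lyz2* reached 30.7 TPM in adult replicate 1 but was at 0.706 TPM in replicate 2, and did not pass (limma adjusted p = 0.0642). *Cd79a* did not pass either. *Ptprc*, which encodes CD45, was at most 2.29 TPM, and *Csf1r* went from a mean of 0.684 to 0.523 TPM, both under the filter. Erythroid markers summed to 7.77 to 257 TPM and 11.9 to 43.6 TPM. Muscle markers summed to 47.1 to 64.2 TPM and 1.79 to 8.83 TPM, with 6 of 6 above 0 in some sample. *Des* made up most of the embryonic sum, falling from a mean of 48.6 to 0.925 TPM (limma adjusted p = 9.83e-06). It was the only 1 of the 4 tested muscle markers that passed.

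The 6 osteoblast markers summed to 4922 to 6007 TPM in embryonic and 553 to 1069 TPM in adult cells. *Col1a1* carried that drop, with a mean of 5462 and then 470 TPM, and *Dmp1* fell from 12.3 to 1.21 TPM. Against the sum, *Ibsp* rose from a mean of 11.6 to 287 TPM and *Alpl* from 15.9 to 35.8 TPM. *Bglap* went from a listed 0 in every embryonic sample to 15.8 to 83.9 TPM. The 6 tendon and fibroblast markers summed to 5267 to 5797 TPM and 425 to 694 TPM, with 4 lower and 0 higher. *Col3a1* carried most of that drop, from a mean of 4764 to 285 TPM. All 10 cell cycle genes fell, from sums of 957 to 1023 TPM to sums of 226 to 270 TPM. Immediate early genes, which rise during tissue digestion, summed to 4095 to 4555 TPM and 3648 to 4165 TPM, with 3 of 11 higher and 4 lower. The part of any of these in the differences above was not tested.

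Sex-linked genes differed between the embryonic samples. *Xist* was at 207, 0.0164 and 78.5 TPM in embryonic replicates 1, 2 and 3 and at 0 to 0.303 TPM in adult cells. The Y-linked *Ddx3y* was at 0.138, 111 and 68.6 TPM and at 54.9 to 81.1 TPM. Embryonic replicate 2 was thus the only embryonic sample with low *Xist* and high *Ddx3y*, as in all adult samples. Embryo sex is not given in the labels, and the part of sex in the stage differences was not tested. With embryonic replicate 2 alone against the 3 adult samples, a fit chosen after seeing the data in which the lone sample is assumed to vary like the others, log2 fold changes were 0.89 for *Id4*, 1.28 for *Smad6*, -1.10 for *Smad7* and 2.64 for *Msx1*. In that fit 10.3% of all tested genes had a limma adjusted p under 0.05. Of the 10 genes 0 did and 4 had an unadjusted p under 0.05, with adjusted p of 0.0646 to 0.0891 for those 4 genes.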

How the data were processed

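RNA-seq of 6 mouse samples was used. The authors mapped reads to GRCm38, estimated levels with RSEM (version not given in the sources used here) and deposited log2(TPM + 1) per gene. Taken back to TPM, every sample adds up to 1000000, so these values hold no depth. The study lists read totals in a supplementary file that was not used here, and precision rests on 3 samples per stage. Nothing in the sources says that samples of a stage came from separate litters, so p-values measure the spread between these samples. Over all genes 6 values of 0 stood beside at least 20 TPM in the other 2 samples of the stage, and such a 0 may be a failed estimate.

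Symbols came from GENCODE M21 (21902 of 22032 identifiers matched). limma 3.58.1 in R 4.3.3 (lmFit, eBayes with trend) was fitted on the deposited log2 values with a pseudocount of 1, over genes averaging 1 TPM or more, with stage as the only term and Benjamini-Hochberg adjustment. EBSeq, which the methods name, was not used. The script was tested on simulated data. Transcripts were compared with BLAST+ 2.17.0 at 95% identity over at least 50 bases, the read length. Coordinates are those of GRCm38. Python 3.11.15 and matplotlib 3.10.9 were used for tables and figures.

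The genes and lists were chosen with earlier results of these data known. Named were all 10 genes, from each pathway list the most abundant gene and up to 2 genes with the largest change among those that passed, and the 3 nearest profiles. The alternatives changed 1 setting at a time: the pseudocount (0.1), the filter (none, or 5 TPM), the scaling (quantile, median-of-ratios, or rescaled after dropping the 20 highest genes), the variance model (robust, or no trend), a replicate block, the threshold (0.01), and the samples (leaving out 1 in turn).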

Additional observations from a re-analysis of the deposited data

How the results depend on the processing

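*Msx1*, *Smad6*, *Id4* and *Smad7* passed the test in the same direction under every alternative but 1, given last, and the count of genes that passed among the 10 was 4 in these, except 5 with median-of-ratios scaling, where 2 in place of 1 were lower because *Id3* passed. The scalings moved the median log2 fold change of all genes from 0.16 to 0.03 (median of ratios), 0.09 (quantile) or 0.25 (without the 20 highest genes), with 2613 higher and 3238 lower under the first. Over all genes 5949 passed, and 3718 at an adjusted p under 0.01. Leaving out single samples gave 26 to 31 pathway genes in place of 32. With embryonic replicate 2 alone, an alternative added after seeing the data that has fewer samples, 1346 genes passed over all, 0 of the 10 (0 higher and 0 lower, 4 at an unadjusted limma p under 0.05) and 5 of the 57 pathway genes passed.

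The replicate numbers are shared by the stages, but over all tested genes same-numbered samples did not deviate together (r of -0.009, -0.017 and -0.022 across genes). The labels do not say whether same-numbered samples were handled together. A correlation over all genes cannot decide this, because a shared step may affect few genes. With the replicate block 4 of the 10 and 32 pathway genes passed, and 5430 genes in all.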
